A study of Mus musculus with 12 samples.

Results

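The 43 genes described here are interferon-stimulated genes, with the guanylate-binding proteins and immunity-related GTPases among them, and were taken by their symbols from a fixed list. Of these, 41 had a row among the 17536 genes of the table, and all 41 passed the filter on low counts. Mx1 and Mx2, dynamin-like GTPases that act against influenza and other viruses, had no row, and RefSeq lists both on chromosome 16 of GRCm38.p6 as transcribed pseudogenes. RNA was sequenced from tissue labelled heart of mice of the outbred stock ICR at 10 weeks of age, with 3 libraries in each of 4 groups. The control group is labelled control, and the busulfan group received the alkylating drug busulfan at 20 mg/kg. The control-FMT group is labelled B+Con-FMT and the AOS-FMT group B+AOS10mg/kg-FMT. The latter label names AOS at 10 mg/kg with FMT and does not say which animals received the AOS. The B is read as busulfan because the design text speaks of FMT after heart damage by that drug. The labels give neither the busulfan dose of the FMT groups nor the sex of the mice or the time from treatment to sampling. The replicates are numbered but not said to be separate animals, so a p-value covers only the spread among these libraries, some of which may be technical.

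Interferons are cytokines, those of type I being released when a cell senses viral or bacterial nucleic acid. Type I interferons act through the receptor chains Ifnar1 and Ifnar2 and bring Stat2 and Irf9 into a complex that binds the interferon-stimulated response element (ISRE). Type II interferon, from T and NK cells, acts through Ifngr1 and Ifngr2 and on genes with a gamma-activated site (GAS). The genes so induced include sensors that renew the response, enzymes and proteins that block viral replication, and GTPases that attack the vacuoles of intracellular microbes. In the unchallenged heart a low tonic level of these transcripts is usual, with endothelial cells and resident macrophages among the cells that make them.

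Totals lay between 11333650 and 14335688 estimated counts per library. The 10 cardiomyocyte markers were abundant in all 12 libraries, with Myh6, the main adult myosin heavy chain, at 36500 to 71900 CPM, the count scaled to a common library size. Atrial markers differed widely, their summed level running from 313 CPM in a busulfan library to 27000 in an AOS-FMT library, and the summed liver markers reached 624 CPM in AOS-FMT replicate 3 and were lower in the other libraries. No replicate was a copy of another, the chi-square per degree of freedom between replicates being 8.88 to 71.5.

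The letters of both elements were sought in promoter windows, 250 bases before to 50 after a transcript start, from RefSeq on GRCm38.p6. An ISRE was read as GAAANNGAAA or its complement TTTCNNTTTC, on both strands, and a GAS as TTCNNNGAA, which reads the same on both strands; matches may overlap. Windows were at hand for 30 of the 41 genes. An ISRE was found in 17 of the 30 (56.7%), against 531 of the 13834 genes of the table with a window (3.84%), and a GAS in 11 of the 30 (36.7%), against 1163 (8.41%). All 7 GTPases with a window held an ISRE and 4 of them a GAS, while the 5 genes with a window among the other induced genes held 0 and 1. A match is a description of the letters and not a measured site. The 160 bases just before the start are shown for 6 genes, all of them among the 17 with an ISRE. Irf7, Oasl2, Xaf1, Lgals3bp and Sp100, among others, had windows with neither element and are not shown. The stretches run 5′ to 3′ on the strand of the gene, with the letters of every ISRE or GAS match in capitals. Isg15 lies at chr4:156200819-156200978 on the minus strand, Ifit3 at chr19:34583369-34583528 on the plus strand, Gbp2 at chr3:142620503-142620662 on the plus strand, Igtp at chr11:58199396-58199555 on the plus strand, Irgm2 at chr11:58214817-58214976 on the plus strand and Irgm1 at chr11:48871421-48871580 on the minus strand.
Isg15: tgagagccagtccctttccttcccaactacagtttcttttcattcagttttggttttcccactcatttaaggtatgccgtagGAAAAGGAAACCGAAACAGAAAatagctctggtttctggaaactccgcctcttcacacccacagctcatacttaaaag
Ifit3: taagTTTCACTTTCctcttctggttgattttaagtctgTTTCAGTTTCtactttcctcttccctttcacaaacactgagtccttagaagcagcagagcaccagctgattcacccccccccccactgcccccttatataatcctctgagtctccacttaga
Gbp2: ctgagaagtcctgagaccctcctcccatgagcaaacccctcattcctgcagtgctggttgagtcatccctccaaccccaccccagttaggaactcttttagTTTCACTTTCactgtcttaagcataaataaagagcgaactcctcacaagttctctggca
Igtp: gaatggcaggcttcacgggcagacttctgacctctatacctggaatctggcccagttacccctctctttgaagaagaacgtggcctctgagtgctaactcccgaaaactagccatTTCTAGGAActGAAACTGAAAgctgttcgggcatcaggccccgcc
Irgm2: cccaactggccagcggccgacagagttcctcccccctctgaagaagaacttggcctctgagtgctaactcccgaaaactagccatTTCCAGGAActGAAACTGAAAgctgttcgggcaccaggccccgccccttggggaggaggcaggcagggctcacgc
Irgm1: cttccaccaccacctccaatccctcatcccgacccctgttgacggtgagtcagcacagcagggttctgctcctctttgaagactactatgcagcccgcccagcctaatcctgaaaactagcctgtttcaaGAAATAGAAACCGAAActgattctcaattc
In Isg15 the 3 ISRE matches ran into each other, and in Ifit3 the 2 matches stood apart. Gbp2 held 1 ISRE. Igtp and Irgm2, neighbours on chromosome 11, each held a GAS followed within a few bases by an ISRE, and their stretches shared 107 of 130 compared bases.

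Levels between genes were compared per transcript length, in the deposited TPM. The highest were Ifitm3, a membrane protein that blocks virus entry, at 420 to 602 TPM, and Ifi27l2a, a small protein of the ISG12 family, at 293 to 863. Next came Bst2, also called tetherin, which holds budding virions at the cell surface, at 64.1 to 153 TPM, Ifi27 at 76.1 to 189 and Lgals3bp, a secreted galectin-binding glycoprotein, at 44.2 to 85.7. Most members were far below these, as with Stat2 at 6.49 to 12.6 TPM and Ifih1 at 2.93 to 5.88. Ifi202b at 0.85 to 2.62 TPM and Gvin1 at 0.38 to 2.3 were at the bottom.

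Across the 6 pairwise comparisons, 2 of the 41 genes passed the threshold, Ifi27 and Gvin1, and no other member passed it in any comparison. A gene was called at an adjusted p under 0.05 from edgeR's quasi-likelihood test with Benjamini-Hochberg adjustment over 13489 genes; every adjusted p that follows is from this test, and each fold change is given on the log2 scale as value ± standard error (SE). The comparisons share groups, so their values are set side by side and not counted as separate support. Lack of overlap between groups of 3 libraries was common. In AOS-FMT against control-FMT 879 of the 13489 genes were higher without overlap and 983 lower, beside 13 and 0 of the members. In control-FMT against control these counts were 966 and 635 of all genes, beside 1 and 13 of the members. In bulk heart RNA, fewer cells of a type and less RNA per cell cannot be told apart.

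In busulfan against control 0 of the 41 genes were called, where 8 of all genes were (0.0593%). The fold change, rounded to 2 decimals, was below 0 in 30 of the 41, above in 10 and at 0 in Iigp1, with a median of -0.11 against -0.01 over all genes. At an unadjusted p under 0.05, 6 members were lower, against 5.78% of all genes, and 1 was higher, against 5.54%. In control-FMT against control 38 of 41 were below 0, with a median of -0.25 against -0.01, and 0 were called where 0% of all genes were. Here 11 members were lower at an unadjusted p under 0.05, against 3.74% of all genes, and 0 were higher, against 4.46%. DESeq2 called 89 genes and limma-voom 0 in that comparison, and of the members DESeq2 called Ifi27. In AOS-FMT against control 17 were above and 21 below 0, and Stat2, Parp14 and Lgals3bp were at 0 when rounded, with both medians at -0.01. Gvin1 was called higher and Ifi27 lower, among 11 called of all genes (0.0815%); at an unadjusted p under 0.05, 2 members were higher, against 5.43%, and 3 lower, against 3.44%.

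In control-FMT against busulfan 36 of 41 were below 0, with a median of -0.13 against -0.00 over all genes, and 0 were called where 0% of all genes were. At an unadjusted p under 0.05, 1 member was higher, against 1.76%, and 1 lower, against 0.89%; DESeq2 called 2 genes and limma-voom 0, none of them a member. In AOS-FMT against busulfan 25 were above 0, with a median of 0.10 against 0.00, and 0 were called where 6 of all genes were (0.0445%). At an unadjusted p under 0.05, 7 members were higher, against 7.8%, and 1 lower, against 5.85%. In AOS-FMT against control-FMT 32 of 41 were above 0, with a median of 0.26 against 0.00. Gvin1 was called higher, among 4 of all genes (0.0297%), and at an unadjusted p under 0.05, 8 members were higher, against 3.88%, and 0 lower, against 2.35%.

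**Figure D1:**
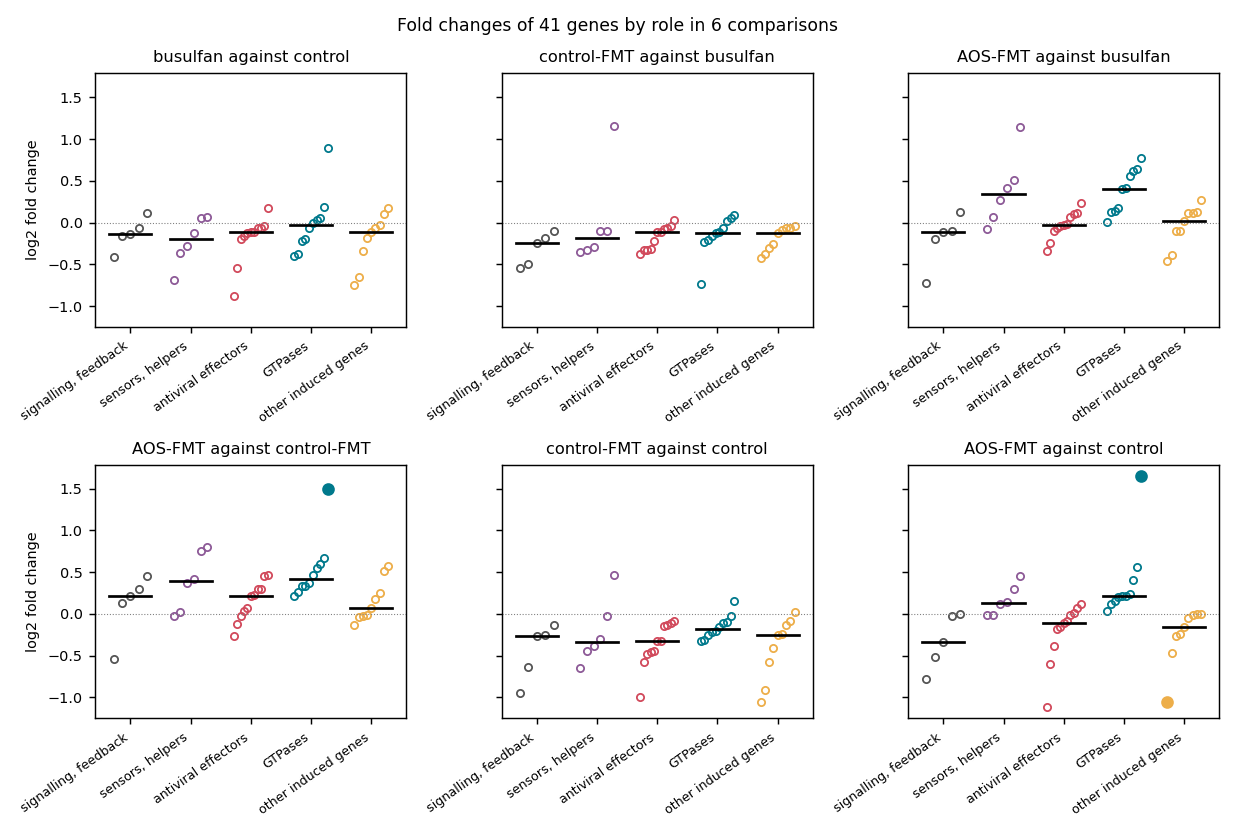
Log2 fold change (y axis) of the 41 genes by role (x axis) in each of the 6 comparisons, 1 circle per gene, with a bar at the median of the role and filled circles for called genes. The 10 GTPases lie above 0 in all 3 comparisons of AOS-FMT, and the 11 antiviral effectors lie below 0 in control-FMT against control.

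Within 3 of the 4 groups most of the genes had the same library at the bottom of the group. Busulfan replicate 2 was the highest of its group in 36 of 41 members (87.8%), against 34.3% of all genes, and busulfan replicate 3 the lowest in 34 (82.9%), against 32.9%. AOS-FMT replicate 3 was the lowest of its group in 35 (85.4%), against 24.8%, and control replicate 3 in 32 (78%), against 27.1%. In control-FMT no library stood out, the highest being replicate 1 in 16, replicate 2 in 12 and replicate 3 in 13. The mean deviation of the 41 genes from their own means was 0.30 on the log2 scale in busulfan replicate 2 and -0.33 in busulfan replicate 3. It lay between -0.21 and -0.15 in the 3 control-FMT libraries. Without busulfan replicate 2 the median fold change of the members against control moved from -0.11 to -0.34, and without busulfan replicate 3 to 0.05. Among the single libraries left out, only busulfan replicate 3 turned its sign. Leaving out busulfan replicates 2 and 3 in turn moved the median of AOS-FMT against busulfan to 0.28 and -0.06. That of control-FMT against busulfan moved to 0.06 and -0.26. The summed macrophage markers were 569, 807 and 670 CPM in busulfan replicates 1 to 3, and the summed T and NK cell markers 5.05, 8.91 and 5.33. Their part in this order was not tested.

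**Figure D2:**
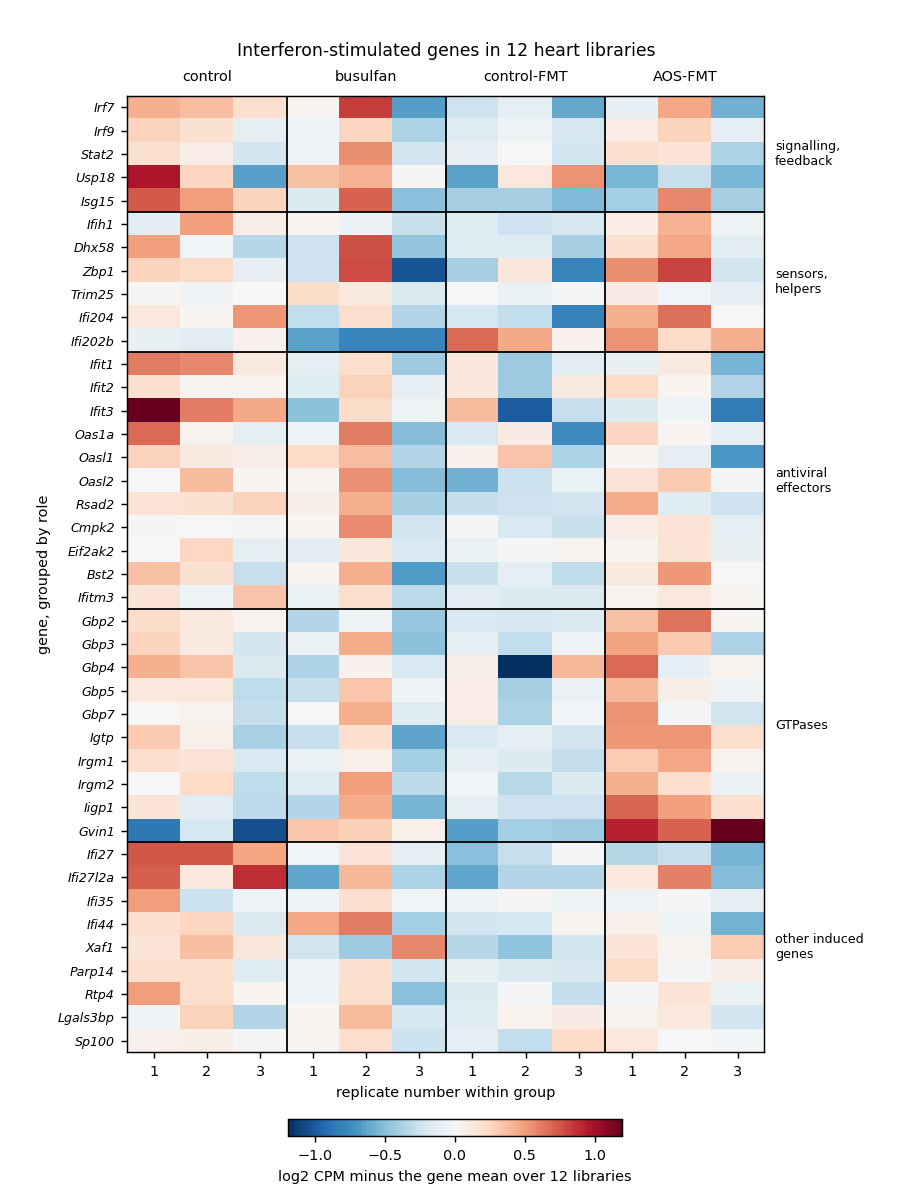
Log2 CPM of each gene (rows, by role) minus its mean over 12 libraries, for every library (columns, by group), in a colour scale that saturates at its ends. Busulfan replicate 2 is red and replicate 3 blue in most rows, the 3 control-FMT columns are mostly pale blue, and Ifi27 is at its darkest red in the 3 control columns.

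**Figure D3:**
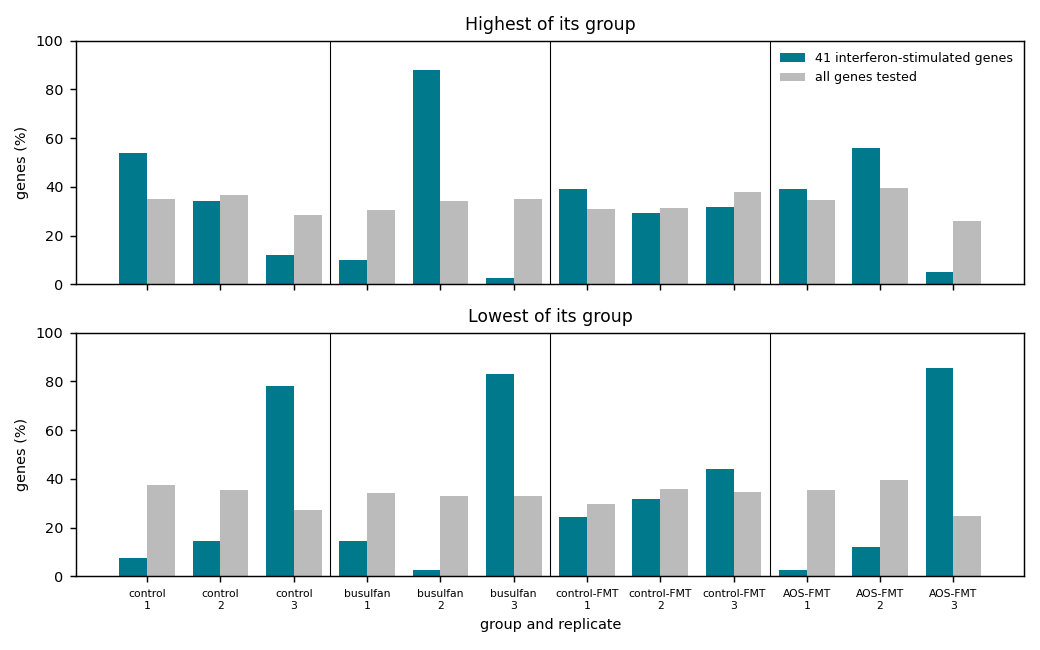
Share of genes (y axis, %) for which a library (x axis) was the highest or the lowest of the 3 in its group, for the 41 genes and for all genes tested. Busulfan replicate 2 reaches 87.8% in the upper panel, and busulfan replicate 3 and AOS-FMT replicate 3 reach 82.9% and 85.4% in the lower panel.

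Of the 5 signalling and feedback genes none was called in any comparison, and all 5 were below 0 in control-FMT against control, with a median of -0.26. Isg15, the ubiquitin-like protein joined to targets during the response, was at 12.2, 10.4 and 8.8 CPM in control, 6.53, 12 and 5.16 in busulfan, 5.57, 5.56 and 5.09 in control-FMT and 5.53, 10.9 and 5.56 in AOS-FMT. The 3 control-FMT libraries lay together below every control library, while busulfan replicate 2 and AOS-FMT replicate 2 were as high as control. The difference of control-FMT from control was -0.95 ± 0.32 (SE), with an adjusted p of 0.442. Irf7, the factor that amplifies interferon production, was at 42.1, 40.4 and 36.1 CPM in control, 32.1, 55.6 and 19.8 in busulfan, 26.4, 28.9 and 20.5 in control-FMT and 29.2, 43.3 and 21 in AOS-FMT. Control-FMT lay below control without overlap, by -0.64 ± 0.35 at an adjusted p of 0.665, and the busulfan libraries spanned the range of all groups.

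Usp18 removes Isg15 from proteins and damps the receptor. Its level was 19.9, 12.2 and 6.5 CPM in control, 13, 13.6 and 10.3 in busulfan, 6.51, 11.1 and 14.8 in control-FMT and 6.96, 8.39 and 6.95 in AOS-FMT. The control libraries covered a wide range that took in all others, and AOS-FMT against control was -0.78 ± 0.36 at an adjusted p of 0.569. Stat2, a subunit of the ISRE-binding complex, was at 34, 31.8 and 25.4 CPM in control, 28.9, 44 and 25.4 in busulfan, 27.8, 30 and 25.5 in control-FMT and 34.6, 33.5 and 22.9 in AOS-FMT. All 4 groups overlapped, and the comparison with its smallest p, control-FMT against busulfan, gave -0.24 ± 0.21 at an adjusted p of 0.999. Irf9, the DNA-binding subunit of that complex, ranged from 27.6 to 43.2 CPM over the 12 libraries.

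Among the 6 sensors and their helpers, 5 were above 0 in AOS-FMT against control-FMT, with a median of 0.39, and none was called in any comparison. Ifi204, a nuclear sensor of DNA of the HIN-200 family, was at 18.3, 17.1 and 24.1 CPM in control, 13.7, 19.4 and 13.2 in busulfan, 14.5, 13.7 and 9.58 in control-FMT and 22.5, 26.6 and 16.7 in AOS-FMT. Every AOS-FMT library was above every control-FMT library, by 0.80 ± 0.22 at an adjusted p of 0.706, and every control-FMT library was below control, by -0.65 ± 0.22 at 0.448. Against busulfan AOS-FMT overlapped, at 0.51 ± 0.22 and an adjusted p of 0.338. With a macrophage marker score as a covariate that value turned to -0.16.

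Ifi202b, a family member on chromosome 1 that restrains DNA sensing, had the lowest counts of this role. It was at 1.8, 1.75 and 1.98 CPM in control, 1.22, 1.1 and 1.1 in busulfan, 3.06, 2.62 and 1.98 in control-FMT and 2.77, 2.26 and 2.56 in AOS-FMT. Busulfan lay below the 3 other groups without overlap, and 5 of the 6 FMT libraries were above every control library. The fold change was -0.69 ± 0.28 in busulfan against control (adjusted p 0.396), 1.16 ± 0.28 in control-FMT against busulfan (0.999) and 1.14 ± 0.28 in AOS-FMT against busulfan (0.241). Its order across the groups was unlike that of Ifi204, and both genes had counts that were not whole in all 12 libraries.

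Ifih1, the MDA5 sensor of long double-stranded RNA, was at 14.8, 22.7 and 17.1 CPM in control, 16.4, 15.4 and 13.4 in busulfan, 14.5, 13.6 and 14.1 in control-FMT and 17.2, 21.6 and 15.5 in AOS-FMT. The control-FMT libraries were the most alike and lay below both the control and the AOS-FMT libraries, by -0.38 ± 0.17 for control-FMT against control (adjusted p 0.587), with AOS-FMT 0.37 ± 0.17 above control-FMT (0.792). Dhx58, the LGP2 helicase that tunes this sensor, ranged from 3.13 to 7.38 CPM, and Zbp1, a sensor of Z-form nucleic acid that triggers necroptosis, from 2.11 to 7.62. Trim25, a ubiquitin ligase of the RIG-I route, was the steadiest of the role at 27.1 to 35.5 CPM.

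All 11 antiviral effectors with a row were below 0 in control-FMT against control, with a median of -0.33, and none was called in any comparison. Ifit3, a partner of the RNA-binding protein Ifit1, stood at 36.6, 24 and 21.6 CPM in control, 11.2, 18.3 and 15.1 in busulfan, 20.4, 7.86 and 13 in control-FMT and 14, 15.2 and 8.77 in AOS-FMT. All 9 libraries of the 3 other groups were below the lowest control library. Against control the fold change was -0.88 ± 0.34 for busulfan, -0.99 ± 0.34 for control-FMT and -1.11 ± 0.34 for AOS-FMT, at adjusted p of 0.379, 0.47 and 0.338. Its counts were not whole in any library. Ifit3b has a row of its own, and how reads were shared between these genes was not examined. Ifit1 was at 12.1, 11.7 and 8.49 CPM in control, 7.22, 9.08 and 5.84 in busulfan, 8.62, 5.81 and 7.16 in control-FMT and 7.38, 8.45 and 5.34 in AOS-FMT. The AOS-FMT libraries lay just below the lowest control library, and the other groups reached into the control range. The difference from control was -0.54 ± 0.23 in busulfan (adjusted p 0.401), -0.58 ± 0.23 in control-FMT (0.531) and -0.60 ± 0.23 in AOS-FMT (0.457). Ifit2, a neighbour of both on chromosome 19, ranged from 13.8 to 22.7 CPM with overlap of control by every group.

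Ifitm3 was at 172, 149 and 195 CPM in control, 146, 178 and 124 in busulfan, 140, 138 and 137 in control-FMT and 159, 168 and 158 in AOS-FMT. The control-FMT libraries agreed closely with each other and lay below control and AOS-FMT, the difference from control being -0.32 ± 0.13 at an adjusted p of 0.561. Rsad2, the enzyme viperin, had the same arrangement against control, at 11, 11.2 and 11.9 CPM in control and 8.07, 8.26 and 8.37 in control-FMT. It was at 10.3, 13.3 and 7.44 CPM in busulfan and 13.4, 8.91 and 8.26 in AOS-FMT, which overlapped control. Its difference between control-FMT and control was -0.46 ± 0.21, with an adjusted p of 0.607.

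Oasl2, an oligoadenylate synthetase-like protein, was at 23.9, 31.1 and 24.3 CPM in control, 24.4, 34.9 and 16.6 in busulfan, 16, 20 and 22.6 in control-FMT and 26.7, 29.7 and 23.5 in AOS-FMT. AOS-FMT lay above control-FMT without overlap, by 0.45 ± 0.23 at an adjusted p of 0.797. Bst2 was at 55.4, 49.2 and 35.7 CPM in control, 44.1, 58.6 and 27.1 in busulfan, 36.1, 40.2 and 35.2 in control-FMT and 47, 62.3 and 43.6 in AOS-FMT. Here too the AOS-FMT libraries were all above control-FMT, by 0.46 ± 0.25 at an adjusted p of 0.797, while busulfan alone covered most of the range. The other effectors were Oas1a, which makes the activator of RNase L, at 5.61 to 15.2 CPM, Oasl1, a repressor of Irf7 translation, at 2.27 to 4.75, Cmpk2, a mitochondrial nucleotide kinase, at 9.32 to 16.6, and Eif2ak2, the kinase PKR that halts translation on double-stranded RNA, at 26.9 to 36.1.

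All 10 GTPases were above 0 in AOS-FMT against busulfan, against control-FMT and against control, with medians of 0.40, 0.42 and 0.21, and 5, 5 and 2 of them were higher at an unadjusted p under 0.05, against 7.8%, 3.88% and 5.43% of all genes. The 3 comparisons share the AOS-FMT libraries, and only Gvin1 was called, in the latter 2. Gbp2, a guanylate-binding protein that coats and breaks open microbial vacuoles, lies at chr3:142620663-142638008. It was at 38.3, 35.6 and 33.8 CPM in control, 25.8, 31.6 and 24 in busulfan, 28.9, 28.6 and 29.2 in control-FMT and 41.8, 51.6 and 33.5 in AOS-FMT. Every busulfan and every control-FMT library was below every control and AOS-FMT library. The fold change was -0.40 ± 0.15 in busulfan against control (adjusted p 0.351), 0.64 ± 0.15 in AOS-FMT against busulfan (0.219) and 0.55 ± 0.15 in AOS-FMT against control-FMT (0.706). DESeq2 called the second of these at an adjusted p of 0.0249, and over 22 alternative settings its adjusted p ran from 0.0249 to 1.

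Of the immunity-related GTPases none was called. Igtp, also known as Irgm3, was at 48, 40.3 and 29.5 CPM in control, 31.9, 44.2 and 24.9 in busulfan, 33.9, 35.5 and 33 in control-FMT and 55.3, 55.7 and 44 in AOS-FMT. AOS-FMT was above control-FMT in every library and nearly so above busulfan, by 0.60 ± 0.20 (adjusted p 0.752) and 0.62 ± 0.20 (0.296). Irgm1, which keeps the effector GTPases off the cell's own membranes, was at 38.1, 36.9 and 29.2 CPM in control, 31.4, 34.5 and 25 in busulfan, 30.7, 29.5 and 27.2 in control-FMT and 40.8, 45.6 and 34.1 in AOS-FMT. The AOS-FMT libraries were above those of control-FMT by 0.46 ± 0.15 (0.735) and overlapped those of busulfan, at 0.41 ± 0.15 (0.297).

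Iigp1, an effector GTPase that attacks the vacuole of Toxoplasma, was at 77, 62.8 and 55.5 CPM in control, 54.1, 94.1 and 46.9 in busulfan, 63.8, 58.4 and 58.4 in control-FMT and 112, 97.1 and 79 in AOS-FMT. Every AOS-FMT library was above every control and control-FMT library, by 0.56 ± 0.23 (adjusted p 0.507) and 0.67 ± 0.23 (0.752), and busulfan replicate 2 reached into the AOS-FMT range, at 0.56 ± 0.23 against busulfan (0.318). Irgm2, the neighbour of Igtp, ranged from 32.6 to 58.4 CPM and overlapped between groups. Counts of Igtp and of Irgm2 were not whole in 8 of 12 libraries each.

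Gbp3 was at 23.6, 21.1 and 16.8 CPM in control, 18.5, 26.6 and 13.9 in busulfan, 18.2, 15.9 and 18.9 in control-FMT and 27.3, 24.4 and 15.1 in AOS-FMT. All groups overlapped, and AOS-FMT against control-FMT was 0.34 ± 0.24 at an adjusted p of 0.815. Gbp5, which promotes the NLRP3 inflammasome, ranged from 11 to 19 CPM and Gbp7 from 23.3 to 43.9. Gbp4 ranged from 15.1 to 55.1 CPM, its lowest value being in control-FMT replicate 2 beside 36.4 and 45.3 in the other libraries of that group.

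**Figure D4:**
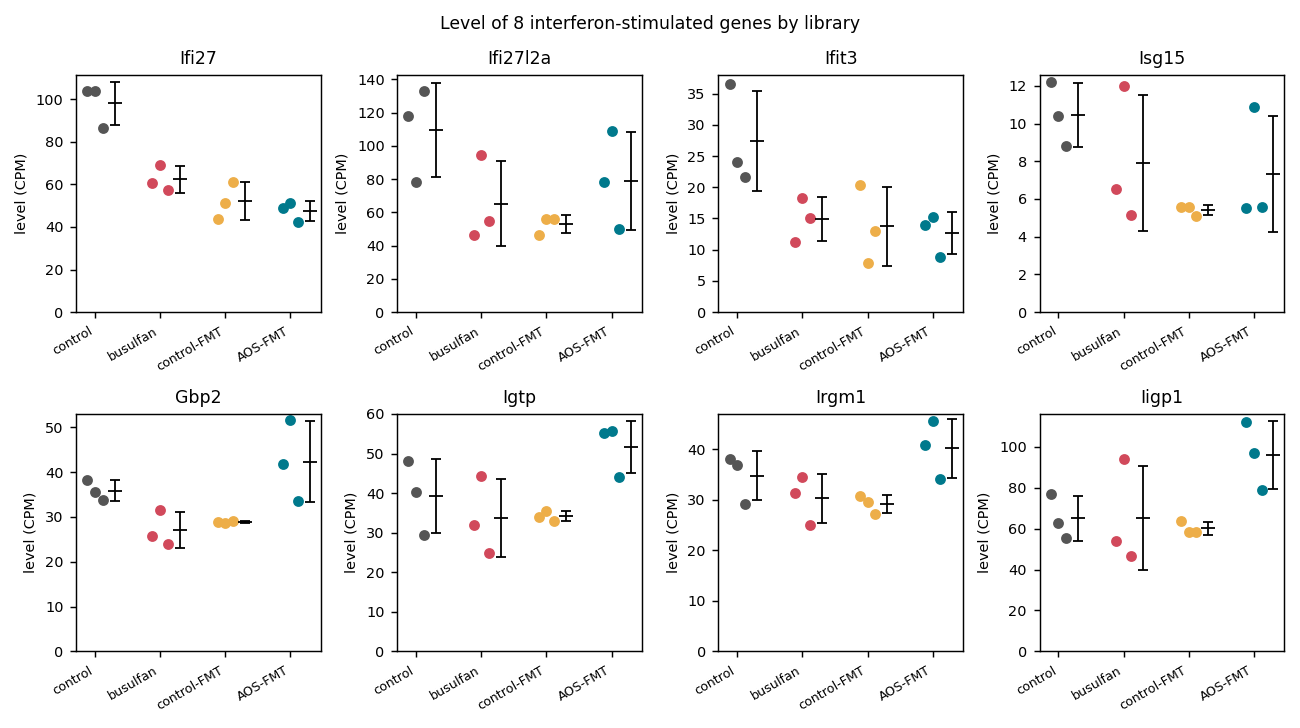
Level (CPM) of Ifi27, Ifi27l2a, Ifit3, Isg15, Gbp2, Igtp, Irgm1 and Iigp1 in each library (points) by group (x axis), with mean and SD over 3 libraries (bars). Ifi27 and Ifit3 are highest in control without overlap, and the 4 GTPases shown, of 10, are higher in AOS-FMT than in control-FMT in every library.

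Gvin1, a very large inducible GTPase at chr7:106156535-106215340, was the one GTPase that was called. It was at 3.34, 5.24 and 2.93 CPM in control, 7.66, 7.38 and 6.34 in busulfan, 3.84, 4.58 and 4.49 in control-FMT and 11.5, 9.94 and 15 in AOS-FMT. The busulfan libraries were above those of control and control-FMT, and the AOS-FMT libraries above all others. It rose by 1.65 ± 0.23 in AOS-FMT against control (adjusted p 0.0192) and by 1.49 ± 0.22 against control-FMT (adjusted p 0.05, just inside the threshold). The other differences were 0.89 ± 0.23 in busulfan against control (0.246), 0.77 ± 0.22 in AOS-FMT against busulfan (0.279), -0.73 ± 0.23 in control-FMT against busulfan (0.999) and 0.16 ± 0.23 in control-FMT against control (0.92). The first call held in 17 of 22 alternative settings, ending without control replicate 1 (1.56, adjusted p 0.132), control replicate 3 (1.48, 0.129) or AOS-FMT replicate 3 (1.47, 0.0508), with only the 6 libraries compared (1.65, 0.202) and with a liver marker score as a covariate (1.17, 0.999). The second held in 3 of 22, with fold changes from 1.19 to 1.65, its adjusted p running from 2.81e-05 with DESeq2 to 0.998 with the liver score. With that score as a covariate 0 of all genes were called in any comparison.

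These values depend on how reads were shared between copies. Gm4070, at chr7:105895118-105953967 and carrying the same RefSeq synonym VLIG-1, has a transcript in GENCODE M21 that aligned to that of Gvin1 over 9005 bases with 3 mismatches and 0 gaps. Gm1966, at chr7:106595549-106644646, is a further gene of this stretch of chromosome 7. Counts of Gvin1 were not whole in any of the 12 libraries. Gvin1 made up 5.16% to 23.4% of the summed level of the 3 genes, and Gm4070 most of the rest, at 57.4, 58 and 41.4 CPM in control, 51.9, 79.5 and 42.7 in busulfan, 62.1, 41.7 and 51.4 in control-FMT and 75, 51.4 and 41.7 in AOS-FMT. Gm4070 did not share the order of Gvin1, its lowest values in each group lying close together. The summed level of the 3 genes in control averaged 61.5 ± 11.8 CPM (SD over 3 libraries), with 72 ± 20.8 for busulfan, 62.4 ± 10.4 for control-FMT and 76.7 ± 17.1 for AOS-FMT. These sums overlapped, but their SD exceeds the difference of Gvin1 between its means of 12.1 CPM in AOS-FMT and 3.84 in control, so they do not bear on it. With transcripts this alike and counts that are not whole, the values of Gvin1 are uncertain as levels of this gene alone.

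**Figure D5:**
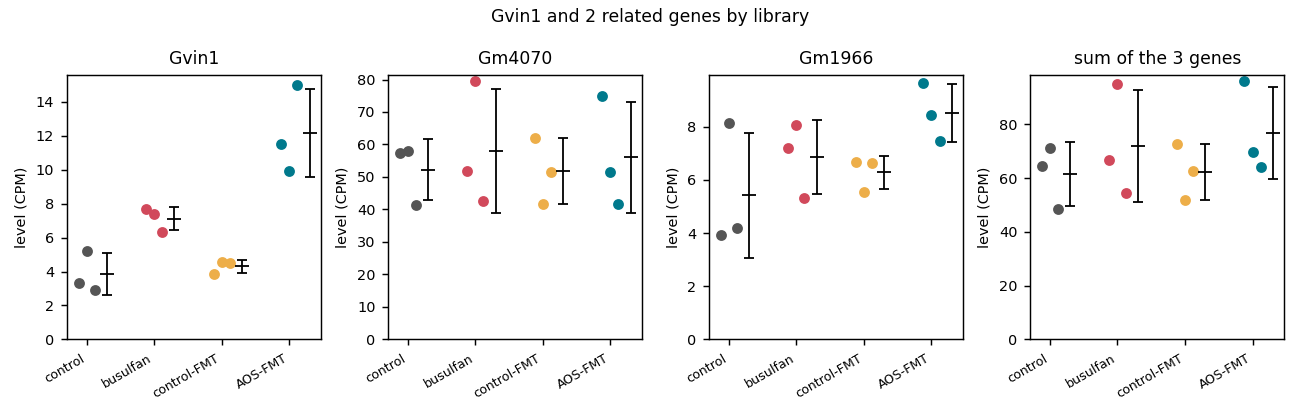
Level (CPM) of Gvin1, Gm4070, Gm1966 and their sum in each library (points) by group (x axis), with mean and SD over 3 libraries (bars). Gvin1 is highest in the 3 AOS-FMT libraries, whereas the sum of the 3 genes overlaps between all groups.

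Among the 9 other induced genes, Ifi27 was the member called lower. Ifi27, also of the ISG12 family, was at 104, 104 and 86.3 CPM in control, 60.7, 69.3 and 57.2 in busulfan, 43.7, 51.3 and 61.3 in control-FMT and 48.9, 51.2 and 42.3 in AOS-FMT. All 9 libraries of the 3 other groups were below the lowest control library. Ifi27 fell by 1.05 ± 0.14 on the log2 scale in AOS-FMT against control (adjusted p 0.0192). It was -0.91 ± 0.14 in control-FMT (0.0542) and -0.65 ± 0.14 in busulfan (0.171) against control, neither of which passed the threshold. Between the 3 other groups the differences were -0.26 ± 0.14 in control-FMT against busulfan (0.999), -0.39 ± 0.14 in AOS-FMT against busulfan (0.296) and -0.13 ± 0.14 in AOS-FMT against control-FMT (0.864). The call held in 18 of 22 alternative settings and ended, at fold changes near that of the whole fit, without control replicate 1 (-1.01, adjusted p 0.0855) or AOS-FMT replicate 3 (-0.97, 0.0508) and with only the 6 libraries compared (-1.05, 0.0661). It also ended with the liver score as a covariate (-0.73, 0.999), where 0 of all genes were called.

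Ifi27l2a, its neighbour, was at 118, 78.2 and 133 CPM in control, 46.5, 94.4 and 55.1 in busulfan, 46.6, 56.3 and 56.3 in control-FMT and 78.4, 109 and 50 in AOS-FMT. Control-FMT lay below control without overlap, by -1.05 ± 0.32 at an adjusted p of 0.431, and the other groups overlapped control, at -0.75 ± 0.32 for busulfan (0.423). With the macrophage score as a covariate the latter value was 0.02. The RefSeq span of Ifi27, chr12:103434189-103440245, lies inside that of Ifi27l2a, chr12:103433873-103443680, on the opposite strand. In GENCODE M21 the 1467 exonic bases of Ifi27 and the 463 of Ifi27l2a share 0 bases, and the counts of both were whole in all libraries. No source used here says whether the counting used strand. The summed level of both in control averaged 208 ± 22.2 CPM (SD over 3 libraries), with 128 ± 31.6 for busulfan, 105 ± 14.1 for control-FMT and 126 ± 33.9 for AOS-FMT. Every other library was below the control libraries, and each group against control gave 0.1, the smallest two-sided p the exact permutation test allows (0.2 after adjustment over 6 comparisons).

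Xaf1, a promoter of apoptosis, went against the common order of the libraries in busulfan and AOS-FMT, though not in control. It was at 29.9, 34.4 and 29.4 CPM in control, 22.8, 19.8 and 40.1 in busulfan, 21.2, 19.2 and 23 in control-FMT and 29.8, 27.6 and 33.1 in AOS-FMT, so that busulfan replicate 2 was here the lowest of its group and replicate 3 the highest. Control-FMT was below control by -0.57 ± 0.21 (adjusted p 0.502) and AOS-FMT above control-FMT by 0.51 ± 0.21 (0.79), both without overlap. Rtp4, a chaperone of membrane receptors, was at 24.7, 20.1 and 17.8 CPM in control, 16.8, 20.1 and 12.3 in busulfan, 15.5, 17.1 and 14.3 in control-FMT and 17.1, 19.5 and 16.5 in AOS-FMT. Control-FMT lay below control, by -0.41 ± 0.17 at an adjusted p of 0.556.

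Lgals3bp was at 97, 121 and 78.6 CPM in control, 102, 130 and 86.8 in busulfan, 90.6, 103 and 107 in control-FMT and 103, 109 and 85.5 in AOS-FMT. Sp100, a protein of nuclear bodies, was at 48.5, 49.7 and 46.2 CPM in control, 47.9, 54 and 39.2 in busulfan, 43.8, 38.2 and 55 in control-FMT and 51.1, 46.7 and 45.8 in AOS-FMT. Both genes overlapped between all groups: the smallest p of Lgals3bp came with 0.10 ± 0.17 in busulfan against control (adjusted p 0.874), and that of Sp100 with -0.08 ± 0.14 in control-FMT against control (0.944). The remaining genes were Ifi35, a partner of Nmi, at 22.6 to 38.4 CPM, Ifi44, a cytoplasmic antiviral protein, at 6.14 to 14, and Parp14, a mono-ADP-ribosyltransferase, at 32.7 to 45.1.

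Other genes of the interferon routes were read from lists, and none of their tested genes was called in any comparison. Of 15 ligands and receptors, 7 had a row and 6 passed the filter, all receptor chains; of the ligands listed only Ifng had a row, and it did not pass. Ifnar1 ranged over 35.4, 38.1 and 38.8 CPM in control, 33.1, 43.3 and 33 in busulfan, 36.2, 40.7 and 38.7 in control-FMT and 43.2, 47.5 and 39.6 in AOS-FMT, with AOS-FMT just above control at 0.21 ± 0.12 (adjusted p 0.632). Ifngr1, the ligand-binding chain of the type II receptor, was at 48.4, 51 and 50.6 CPM in control, 45.3, 51.8 and 39.2 in busulfan, 52.4, 46.5 and 48.2 in control-FMT and 57.4, 69.4 and 62.1 in AOS-FMT. All AOS-FMT libraries were above all others, by 0.47 ± 0.11 against busulfan (0.234), 0.36 ± 0.11 against control-FMT (0.72) and 0.33 ± 0.11 against control (0.389).

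The 15 genes of the signalling chain had medians from -0.05 to 0.16 over the 6 comparisons. Irf1, the factor through which interferon gamma raises many GTPases, was at 27.3, 26.3 and 24.8 CPM in control, 21.8, 25.5 and 24.6 in busulfan, 26.7, 25.6 and 28.4 in control-FMT and 31.9, 36.9 and 25.6 in AOS-FMT. It was above busulfan in AOS-FMT by 0.39 ± 0.13 (0.296) and had the smallest p of this list. Of the 16 genes of nucleic acid sensing, Ticam1, the adaptor TRIF, had the smallest p, at 0.48 ± 0.15 in control-FMT against control (0.418).

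Of the 51 tested further interferon-induced genes, 40 were above 0 in AOS-FMT against control-FMT, with a median of 0.18, and 34 were below 0 in control-FMT against control, with a median of -0.07. Cxcl9, a chemokine for T cells, had the smallest p of that list in any comparison. It was at 10.3, 7.22 and 6.66 CPM in control, 12.8, 15 and 8.96 in busulfan, 12.8, 10.1 and 7.08 in control-FMT and 22.6, 16.3 and 13.8 in AOS-FMT, and AOS-FMT was above control without overlap, by 1.13 ± 0.26 at an adjusted p of 0.176. The 10 GTPases outside the 41 genes include Gm4070, the near copy of Gvin1. All 10 were above 0 in AOS-FMT against control-FMT, with a median of 0.58. Of them, 1 was higher at an unadjusted p under 0.05, against 3.88% of all genes. In AOS-FMT against busulfan 6 were above 0 and 4 below, with a median of 0.40. Gm12250, the immunity-related GTPase with the smallest p among them, was 0.65 ± 0.22 higher in AOS-FMT than in busulfan (adjusted p 0.296).

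Marker genes of other cells moved with some of these differences. In busulfan and in control-FMT against control all 8 atrial markers were below 0, with medians of -3.34 and -2.92. In AOS-FMT against busulfan and against control-FMT all 8 were above 0, with medians of 3.14 and 2.94. In that order 1, 2, 1 and 2 had an unadjusted p under 0.05, against 5.78%, 3.74%, 7.8% and 3.88% of all genes. In AOS-FMT against control 5 were above 0 and 3 below, with a median of 0.09. The summed level of the 15 macrophage markers was 876 to 1180 CPM in control, 569 to 807 in busulfan, 687 to 1240 in control-FMT and 879 to 1260 in AOS-FMT, and 12 of 15 were below 0 in busulfan against control, 6 with an unadjusted p under 0.05 (5.78% of all genes lower). In AOS-FMT against busulfan 13 of 15 were above 0, 9 with an unadjusted p under 0.05 (7.8% of all genes higher). Beside the same comparison, where the GTPases were above 0, all 8 fibroblast markers were above 0, 6 of them with an unadjusted p under 0.05, and all 10 cardiomyocyte markers below 0, 7 of them (5.85% of all genes lower). Beside Ifi27 and Ifit3, the 5 tested platelet markers were all below 0 against control, with medians of -2.26 for busulfan, -2.38 for control-FMT and -1.85 for AOS-FMT, and their summed level was 25.3 to 82.3 CPM in control, 16.3 to 20.5, 17.8 to 23.2 and 22.9 to 36.3 in those groups. The 12 T and NK cell markers summed to 4.28 to 5.95 CPM in control, 5.05 to 8.91 in busulfan, 5.52 to 15.7 in control-FMT and 6.96 to 25.6 in AOS-FMT, with Prf1 at 0 in some libraries. Only 6 of them passed the filter. In AOS-FMT against control all 6 were above 0, 4 with an unadjusted p under 0.05 (5.43% of all genes higher). The 10 endothelial markers summed to 1180 to 1220 CPM in control and 1350 to 1440 in AOS-FMT, without overlap. They were at 1170 to 1390 CPM in busulfan and 1190 to 1360 in control-FMT, which overlapped every other group. In AOS-FMT against control 7 of 10 were above 0 and 3 below, and 3 were higher at an unadjusted p under 0.05 (5.43% of all genes higher). Liver markers were at 58.8 to 624 CPM in AOS-FMT, against 7.96 to 61.6 in the other groups. In AOS-FMT against control 11 of 12 were above 0 and 1 below, with a median of 5.39. Of these, 10 were higher at an unadjusted p under 0.05 (5.43% of all genes higher). The part of these cells in the differences of the interferon-stimulated genes was not tested, apart from the covariate values given here.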

How the data were processed

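Heart RNA-seq was analysed in 12 libraries. The authors deposited estimated counts per gene, and the deposited file also holds TPM and FPKM columns, per the file headers; counts were used in the tests, TPM to compare levels between genes, and FPKM and the authors' group means were not used. Of the estimated counts, 94.7% to 95.3% per library were whole within 1e-09. Per the submitters' processing notes, Bowtie 0.12.2 and mm10 were used; no source used here names the counting tool, the annotation or the strand setting. Of 17536 gene IDs, 17487 matched the RefSeq table of GRCm38.p6, the assembly mm10 denotes, whose positions are given; the spans of 14 of the 41 genes overlap another gene there.

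Estimated counts were rounded, filtered with filterByExpr (13489 genes kept), scaled by TMM (factors 0.908 to 1.08) and tested by edgeR 4.0.16 (glmQLFit, robust; R 4.3.3), with all 12 libraries, group as the only term and 6 contrasts; the coefficient of variation was 18.6%. CPM are TMM-scaled. Benjamini-Hochberg adjustment ran over all genes tested. The alternatives were other scalings, no filter, DESeq2 1.42.0, limma-voom (limma 3.58.1), only the 6 libraries compared, a replicate block, covariates for atrial, liver and macrophage marker scores, and each library left out. The fit was tested on simulated data. Transcripts were aligned with blastn 2.17.0.

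The members and lists were chosen with earlier results of these data known. Every member was to be named with its range; full values were given for called members, the 3 smallest p in each comparison, and a fixed set of 22, in the comparison of their smallest p. Members with an unadjusted p under 0.05 were also given. Of other lists, the gene with the smallest p and Ifnar1, Ifngr1 and Irf1 were given; a further gene of the rule is not reported here.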

Additional observations from a re-analysis of the deposited data

How the results depend on the processing

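Over 22 alternative settings, 52 fold changes of members were followed with the counts and medians of the 6 comparisons. Values turned in sign for Ifi27l2a in busulfan against control (0.02) and Ifi204 in AOS-FMT against busulfan (-0.16) with the macrophage covariate; for Ifi27 in AOS-FMT against control-FMT (0.05) and Gvin1 in control-FMT against control (-0.02) with the liver covariate; for Gvin1 there (-0.01) and Lgals3bp in busulfan against control (-0.05) without control replicate 3; for Lgals3bp (-0.07) and Stat2 in control-FMT against busulfan (0.03) without busulfan replicate 2; and for Sp100 in control-FMT against control (0.04) without control-FMT replicate 2. With a library left out these fold changes ran from -0.07 to 0.28 for Lgals3bp, -0.39 to 0.03 for Stat2, -0.01 to 0.45 for Gvin1 and -0.23 to 0.04 for Sp100. None of these 9 values had passed the threshold, and the cause was not tested.

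DESeq2 called 1 member in busulfan against control (Ifi27), 1 in AOS-FMT against busulfan (Gbp2) and 1 in control-FMT against control (Ifi27), and Ifi27 was also the 1 called there with no filter. In AOS-FMT against control-FMT the 1 call became 0 with median-of-ratios factors, library size only, limma-voom, the 6 libraries compared and each of the 3 covariates, and lay between 0 and 1 with a library left out. In AOS-FMT against control the 2 calls became 0 with the 6 libraries and the liver covariate, which moved the members' median from -0.01 to 0.25; with a library left out 0 to 2 were called. In control-FMT against control 0 to 1 were called with a library left out. The members' median in busulfan against control lay between -0.34 and 0.05 with a library left out. DESeq2 called 119, 2, 131, 32, 89 and 122 of all genes, against 8, 0, 6, 4, 0 and 11 in edgeR, in the order busulfan against control, control-FMT and AOS-FMT against busulfan, AOS-FMT against control-FMT, and control-FMT and AOS-FMT against control. Library size alone moved the median of all genes by up to 0.14, in AOS-FMT against busulfan, where the members' median was then 0.23.

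Replicate numbers were not taken to pair the samples, since not every same-numbered pair deviated together: over 18 pairs the correlation of deviations ran from -0.17 to 0.44, and 10 exceeded 0.1, among them all 6 pairs of replicate 1. Nor did every sample correlate best with its own number, control replicate 2 doing so with busulfan replicate 3 (0.33). With the replicate block 0, 0, 0, 0, 1 and 2 members were called in that order, the 1 being Ifi27 at an adjusted p of 0.0455 (range over settings 4.32e-06 to 0.315), while the call of Gvin1 in AOS-FMT against control-FMT ended at 0.0558 (2.81e-05 to 0.998).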
